A study of Zea mays with 24 samples.

Results

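Organelle-type ribosomal protein genes are here the genes whose deposited description names a 30S or a 50S ribosomal protein. These are the small and large subunits of the bacterial type of ribosome. Of 46 genes with such a description, 2 were set aside because the description placed the sequence in the chloroplast, and 44 remained out of 37467 genes listed in at least 1 of 24 maize leaf libraries. The 44 members hold 14 genes for the small subunit and 30 for the large subunit, under 30 different protein names. The rule read descriptions alone and no expression value, and it did not check that each gene lies in the nucleus.

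Chloroplasts and mitochondria have ribosomes of their own, which descend from those of their bacterial ancestors. Some of the ribosomal proteins are still encoded in the organelle genome, but most are encoded in the nucleus, made in the cytosol and imported. Plastid ribosomes translate the core proteins of the photosystems and the large subunit of Rubisco, and leaves that lack them are pale or die as seedlings. In addition to the proteins shared with bacteria they carry plastid-specific ribosomal proteins (PSRPs).

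The libraries fell into 3 sets of 8, and each set held a wild type and a line with a changed NF-Y transcription factor, under normal and drought conditions, with 2 libraries in each of 4 groups. The W22 set compared the inbred line W22 with *zmnf-ya1*, 1 insertion line of *ZmNF-YA1* in W22. The B104 set compared the inbred line B104 with *ZmNF-YB16* OE, 1 overexpression line. The DH4866 set compared DH4866 with libraries labelled *ZmNF-YA1* OE, whose RNA-seq the study's methods do not describe. Each W22-set library was made from pooled leaves of 3 to 4 potted greenhouse plants. The labels give the V4 stage for every library, whereas the study's methods trace the B104 set to earlier field work on ear leaves. Those methods also give a BGI sequencing platform and TRIzol extraction for the W22 set, and an Illumina platform and another RNA extraction for the B104 set. Background, leaf, growth, stage, platform and extraction therefore cannot be told apart between sets. No source says that replicates are paired or that they came from separate plantings, so P values measure the spread between these libraries.

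The W22-set libraries held between 20863136 and 21178202 expected counts each, those of the DH4866 set between 20696448 and 21289711, and those of the B104 set only between 3429314 and 5608889, so that counting error was larger there. Reads of *ZmNF-YA1* itself numbered 278 and 298 in unstressed W22 against 91 and 107 in the unstressed mutant, and 121 and 145 against 110 and 102 under drought. In the libraries labelled *ZmNF-YA1* OE it had 278 and 260 counts under normal conditions and 133 and 136 under drought, against 236 and 247 and then 146 and 150 in DH4866. Under drought these libraries thus did not exceed their wild type, and they are named by their label throughout. One library stood apart: the second library of unstressed B104 held 1968 CPM (counts scaled to a common library size) from genes described as organelle-encoded ribosomal proteins, against 40 in the first.

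Leaf identity was clear in all sets. Summed over 13 chlorophyll a-b binding protein genes, the level ranged from 47690 to 91950 normalized CPM over the W22-set libraries, from 55720 to 66070 over the DH4866-set libraries and from 4815 to 21500 over the B104-set libraries. A list of 8 pollen genes reached at most 2.04 CPM in any library. These are bulk samples, so fewer cells of a type and less RNA per cell cannot be told apart.

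Not every member could be measured well. The filter on low counts kept 41 members in the W22 and B104 sets and 42 in the DH4866 set. An L18 gene (GRMZM2G479581) was listed in 9 libraries, an L20 gene (GRMZM2G028547) in 1 and an S19 gene (GRMZM5G888793) in 3, and the last was tested only in the DH4866 set. The other S19 gene (GRMZM2G427404), whose sequence is described as plastid, was listed in 18 libraries. The GO column of the files places 22 members in the plastid, 10 in the mitochondrion, 9 in both and 3 in neither. For 6 members, 2 of them PSRP2 genes, the KEGG column also names another protein, so their identity is less certain, as is that of both S19 genes. RSEM, the program behind the counts, divides reads that fit several genes, so values of the 26 members that share a protein name with another may be uncertain in assignment.

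Levels differed widely among the members. Per length, the highest mean FPKM over the W22 set was 369 for S17 (GRMZM2G038013), the gene that RefSeq synonyms match to the maize mutant hcf60. It was followed by L31 (GRMZM2G130358) at 282, L40 (GRMZM2G157007) at 276, L34 (GRMZM2G042492) at 269 and PSRP3 (GRMZM2G361569) at 250. In the DH4866 set the same 5 genes led, with S17 at 343, L31 at 280, L34 at 268, L40 at 265 and PSRP3 at 261. The order differed in the B104 set, where L1 (GRMZM2G005973) had 276, S1 (GRMZM5G862107) 211, S5 (GRMZM2G025855) 166, PSRP3 162 and L31 161, and S17 had 65.7. The 10 highest members made up 64.6% of the members' summed mean FPKM in the W22 set, 62.6% in the DH4866 set and 58.0% in the B104 set. The second S17 gene (GRMZM2G108008) stayed between 3.27 and 10.5 FPKM in all 24 libraries.

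Drought raised most members in W22. Of 41 tested, 29 were higher and 3 lower under drought (adjusted P below 0.05, edgeR's quasi-likelihood test), against 34.8% and 33.8% of all 24159 genes tested. The median log2 fold change was 0.475 for the members and -0.003 for all genes. Both subunits moved this way, with 8 of 13 tested members of the 30S subunit and 21 of 28 of the 50S subunit higher. Changes were mostly modest: 3 members also passed the study's limit of a 2-fold change upward, as did 17.5% of all genes. With library size alone as the scaling, 22 members were higher and 5 lower.

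**Figure D1:**
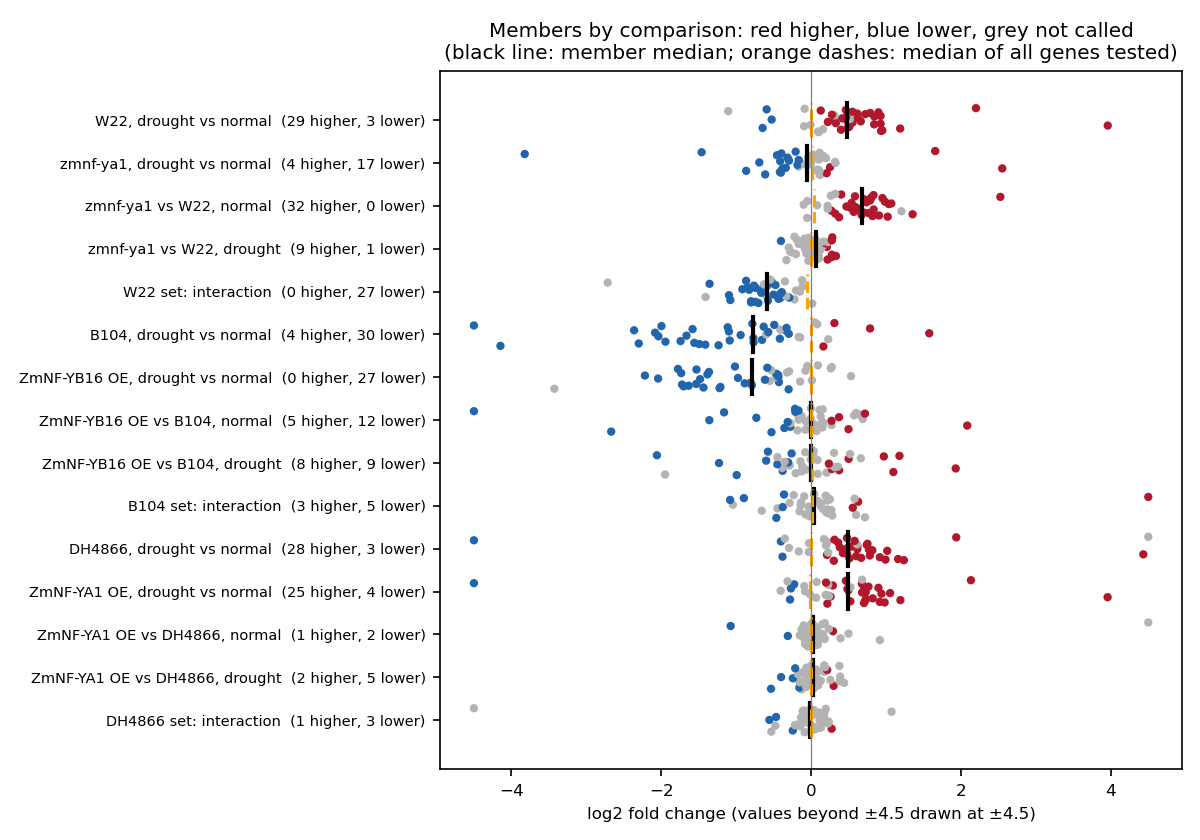
Log2 fold change of each member (points, x axis) in the 15 comparisons (y axis), red where higher, blue where lower and grey where not called at an adjusted P of 0.05. Black lines mark the member median and orange dashes the median of all genes tested: the member median lies at 0.475 in W22 under drought and at -0.77 in B104.

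Among the small-subunit proteins S17 changed most. S17 (GRMZM2G038013) had 126 and 122 normalized CPM in unstressed W22 and 290 and 275 under drought. The conditions did not overlap, and the log2 fold change was 1.19 ± 0.08 (± SE throughout, adjusted P = 1.22e-08). S5 (GRMZM2G025855), a protein involved in the accuracy of decoding in bacteria, went from 172 and 165 to 324 and 321 CPM, a log2 fold change of 0.93 ± 0.06. PSRP1 (GRMZM2G347956), related to the bacterial factors that bind idle ribosomes, had 123 and 126 CPM and then 238 and 226. S10 (GRMZM2G047513) and S1 (GRMZM5G862107) did not pass the test, each at -0.09.

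In the large subunit, L29 (GRMZM2G028216), which lies near the tunnel through which the new chain leaves the ribosome, had 101 and 105 CPM in unstressed W22 and 197 and 201 under drought. Its log2 fold change was 0.95 ± 0.06 (adjusted P = 6.99e-09). L40 (GRMZM2G157007), for which the KEGG column gives 50S ribosomal protein 5, rose from 106 and 108 to 203 and 204 CPM. The largest ratios belonged to 2 weakly expressed members. L35 (GRMZM2G052586) had 0.170 and 0.254 CPM and then 3 and 3.75, a log2 fold change of 3.96 ± 0.33, from 4 and 6 expected counts in the unstressed libraries. Its identity is uncertain, because its KEGG entry names an enzyme of another pathway. L9 (GRMZM5G866627), which the GO column places in the mitochondrion, had 0.932 and 1.27 CPM and then 5.11 and 5.05, a log2 fold change of 2.2 ± 0.19.

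The 3 members that fell in W22 were both L28 genes and an L18 gene. L28 (GRMZM2G042061) had 37.8 CPM in both unstressed libraries and 23.8 and 24.5 under drought, a fall by 0.65 on the log2 scale (adjusted P = 2.82e-06). The second L28 gene (GRMZM2G119675) had 51.5 and 57.2 CPM and then 36.2 and 39.3. L18 (GRMZM5G857303), a weakly expressed gene, had 2.59 and 2.83 CPM and then 1.64 and 1.95.

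The mutant behaved otherwise under drought. In *zmnf-ya1*, 4 members were higher and 17 lower, against 28.1% and 29.6% of all genes, with a member median of -0.056 and an all-gene median of 0.007. This split depended on the scaling: with library size alone 16 members were higher and 11 lower, and with limma on log2(FPKM + 1) 17 and 10. Library size alone also moved the median of all genes to 0.232, so that the members stood 0.063 below it under either scaling. A change of scaling shifts all genes nearly alike, so this difference cannot show which scaling is right. Of the 29 members that were higher in W22, 4 were higher in the mutant, 8 were lower and 17 were not called. The same split was not taken for all genes, so it does not show anything particular to the members. The count of 4 was 7 without the first unstressed library of *zmnf-ya1* and 2 without its second drought library.

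Those that rose in *zmnf-ya1* were L35 at 2.55, L9 (GRMZM5G866627) at 1.66, L19 (GRMZM2G064807) at 0.25 and L29 (GRMZM2G028216) at 0.21 on the log2 scale. S17 had 345 and 289 CPM in the unstressed mutant and 349 and 335 under drought, groups that overlapped. Its log2 fold change of 0.11 did not pass the test. Among the members that fell, L18 (GRMZM5G857303) went from 5.62 and 4.06 to 1.84 and 1.66 CPM, and L28 (GRMZM2G042061) from 49.5 and 45.1 to 25.2 and 26.7. PSRP1 had 256 and 225 CPM and then 172 and 179, a fall by 0.46 on the log2 scale (adjusted P = 5.17e-05).

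The difference between the 2 responses was tested directly. For 27 of 41 members the response to drought was lower in *zmnf-ya1* than in W22, and for 0 it was higher, against 22.5% and 15.3% of all genes. No member was higher at an unadjusted P below 0.05 in edgeR or called higher by DESeq2, whereas limma on FPKM called 1. The member median of the difference was -0.589, beside -0.054 for all genes. A lower response was not particular to the members. It was called for 133 of 175 cytosolic ribosomal protein genes, with 2 higher and a median of -0.621. Of 13 chlorophyll a-b binding genes 12 were lower and 0 higher, with a median of -0.919. Of 7 organelle translation factor genes 4 were higher and 0 lower. Among called members PSRP1 differed most, at -1.35 ± 0.09 (adjusted P = 2.25e-07), followed by L12-2 (GRMZM2G065956) at -1.10, S17 at -1.08, L18 (GRMZM2G142097) at -0.92 and L18 (GRMZM5G857303) at -0.87. A difference of more than 2-fold was reached by 3 of these, against 9.02% of all genes. With library size alone 13 members had a lower and 1 a higher response, and all genes then had a median of 0.311.

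Without stress, the members were already higher in the mutant. Of 41 members 32 were higher in *zmnf-ya1* than in W22 and 0 lower, against 30.2% and 23.4% of all genes, and the medians were 0.674 for the members and 0.042 for all genes. No member was lower at an unadjusted P below 0.05 in edgeR or called lower by DESeq2, whereas limma on FPKM called 3. More than 2-fold differences were seen for 5 members, against 8.40% of all genes. Library size alone gave 20 higher and 2 lower, a member median of 0.274 and an all-gene median of -0.346, so the members stood 0.620 above all genes instead of 0.631. As above, this near equality follows from how scaling works and cannot show which scaling is right. The unstressed W22 libraries enter both this comparison and the W22 drought response, so the resemblance of the 2 lists is not independent of them.

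S17 (GRMZM2G038013) stood at 126 and 122 CPM in the wild type and at 345 and 289 in the mutant, a log2 difference of 1.35 ± 0.08 (adjusted P = 2e-08). The level in the unstressed mutant thus reached that of W22 under drought, at 290 and 275 CPM. L18 (GRMZM2G142097) had 138 and 146 against 306 and 291 CPM, and L31 (GRMZM2G130358) 158 and 170 against 342 and 332. S5 had 172 and 165 against 360 and 325 CPM, a log2 difference of 1.02. L31 and L18 are parts of the large subunit, and S5 and S17 of the small one. The S19 gene GRMZM2G427404 had 1.82 and 1.10 against 9.32 and 7.59 CPM, the largest ratio in this comparison, at 2.53 ± 0.55. L1 (GRMZM2G005973), at 209 and 206 against 198 and 202 CPM, did not pass the test.

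Under drought the 2 genotypes lay close together. Here 9 members were higher and 1 lower in *zmnf-ya1*, against 9.50% and 9.79% of all genes, and the member median was 0.060. Leaving out either drought library of W22, or the second of *zmnf-ya1*, left 4 members higher. L34 (GRMZM2G042492), a small protein of the large subunit, had 221 and 223 CPM in W22 and 279 in both mutant libraries, a log2 difference of 0.33. L13 (GRMZM2G043212), a protein that takes part early in large-subunit assembly in bacteria, had 202 in both W22 libraries and 254 and 238 in the mutant. PSRP1 was the member that was lower, with 238 and 226 against 172 and 179 CPM, a log2 difference of -0.40.

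The summed level of the members moved in step with these counts. It was 2850 and 2874 normalized CPM in unstressed W22, 4891 and 4649 in unstressed *zmnf-ya1*, 3970 and 4013 in W22 under drought and 4344 and 4418 in *zmnf-ya1* under drought. Unstressed W22 was the lowest of the 4 groups, and no 2 groups overlapped. The order of the other groups depended on the scaling. As a share of all counts the members made up 0.322% and 0.326% in unstressed W22 and 0.408% and 0.41% in unstressed *zmnf-ya1*. Under drought the shares were 0.404% and 0.413% in W22 and 0.436% and 0.443% in *zmnf-ya1*. By share, unstressed *zmnf-ya1* thus overlapped W22 under drought and lay below *zmnf-ya1* under drought. Other lists moved as well. The 13 chlorophyll a-b binding genes summed to 47690 and 49080 CPM in unstressed W22, 81570 and 91950 in the unstressed mutant and 57940 to 60680 under drought in both genotypes. A list of 3 genes of dividing cells, weakly expressed, summed to 2.585 and 2.876 CPM in unstressed W22 and 12.8 and 12.83 under drought, and to 3.011 and 3.583 and then 7.986 and 9.243 in *zmnf-ya1*. Of its 2 genes tested, 2 were higher under drought in W22 and 1 in *zmnf-ya1*. The part of these lists in the members' result was not tested.

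**Figure D2:**
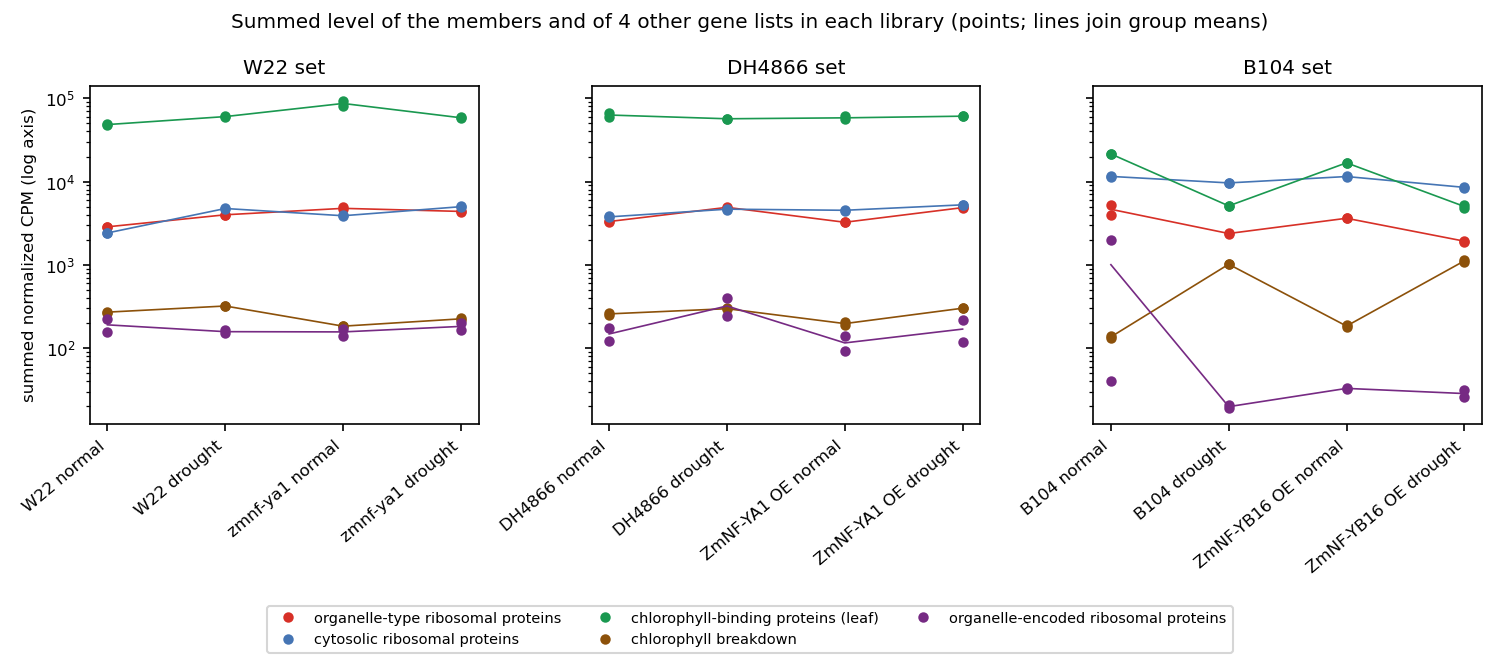
Summed normalized CPM (log axis) in each library (points, with lines joining group means) for the members and for 4 other gene lists. The members rise under drought in W22 and in both DH4866-set genotypes and fall in both B104-set genotypes, where the chlorophyll a-b binding genes also fall and the chlorophyll breakdown genes rise from at most 186.9 to at least 1016 CPM.

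In the DH4866 set most members were also higher under drought. In DH4866, 28 of 42 members were higher and 3 lower under drought, against 31.6% and 31.1% of all 24604 genes, with a member median of 0.495 and an all-gene median of -0.006. In the libraries labelled *ZmNF-YA1* OE, 25 were higher and 4 lower, against 29.1% and 28.6%, with a median of 0.491. Without the first unstressed library of the labelled line the lower count was 2. All 25 were among the 28 of DH4866. Changes of over 2-fold upward were seen for 5 members in DH4866 and 4 in the labelled line, against 14.0% and 12.2% of all genes. The summed level rose from 3312 and 3317 to 4883 and 4926 CPM in DH4866, and from 3255 and 3236 to 4827 and 4905 CPM in the labelled line. The 13 chlorophyll a-b binding genes went from 66070 and 59930 to 56450 and 57150 CPM in DH4866 and from 60860 and 55720 to 60840 and 61210 CPM in the labelled line, and their part was not tested.

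L29 (GRMZM2G028216) had 96 and 100 CPM in unstressed DH4866 and 214 and 224 under drought, a log2 fold change of 1.16 ± 0.06 (adjusted P = 1.92e-10). S17 had 162 and 151 CPM and then 309 and 283 in DH4866, and 163 and 156 and then 363 and 366 in the labelled line. Drought thus raised S17 more in the labelled line, and the difference of 0.27 ± 0.08 passed the test (adjusted P = 0.0325). That call was lost with library size alone, where the difference was 0.21, and in 5 of 8 fits with a library left out. S2 (GRMZM2G013798), a small-subunit protein, had 11.5 and 14.9 CPM and then 26.1 and 36.4 in DH4866. In the same libraries the genes described as organelle-encoded ribosomal proteins summed to 123.1 and 172.8 and then 245.1 and 396 CPM. Their part in the rise of S2 was not tested. L6 (GRMZM2G086788), a large-subunit protein near the site where elongation factors bind, had 67.1 and 77.4 CPM and then 146 and 147. The weakly expressed L35 and L9 (GRMZM5G866627) again had the largest rises among called members, at 4.43 and 1.94 in DH4866 and 3.96 and 2.13 in the labelled line.

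PSRP1 fell in DH4866, unlike in W22. It had 240 and 226 CPM and then 168 and 184, a fall by 0.40 on the log2 scale (adjusted P = 2.24e-05), and in the labelled line 239 in both unstressed libraries and 203 and 206 under drought. L28 (GRMZM2G042061) fell from 40.6 and 36.7 to 29.2 and 30.1 CPM in DH4866. The S19 gene GRMZM2G427404 had 166.6 expected counts over both unstressed DH4866 libraries and 0 over both drought libraries. Against a floor of 3 counts over the group it was at least 55.2-fold lower, and in the labelled line, with 82.5 counts and then 0, at least 26.3-fold lower. These floors cover counting error only, not how reads were divided between genes. The other S19 gene (GRMZM5G888793) had 0 CPM in both unstressed DH4866 libraries and 0.723 and 0 under drought.

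The genotypes of this set differed little. Under normal conditions 1 member was higher and 2 lower in the labelled line, against 10.1% and 9.88% of all genes. S16 (GRMZM2G152599) had 15.5 and 16 CPM in DH4866 and 20.1 and 18.4 in the labelled line, while PSRP2 (GRMZM2G090271) had 47.1 and 47.9 and then 39.7 and 36.9. The third was the S19 gene GRMZM2G427404, with 3.84 and 4.10 against 2.60 and 1.18 CPM. Under drought 2 were higher and 5 lower, against 10.8% and 11.8%, and leaving out any library left 1 to 3 lower. L28 (GRMZM2G119675) was lower, with 61.2 and 61.9 CPM in DH4866 against 44.8 and 48.4. The response to drought was higher in the labelled line for 1 member, S17, and lower for 3, against 8.67% and 9.40% of all genes. These 3 were L28 (GRMZM2G119675) at -0.56, S16 at -0.47 and L29 (GRMZM2G028216) at -0.24. L28 was called in every fit with a library left out, S16 was called in 4 of 8 and L29 was called in 0 of 8, so that 1 or 2 members were lower in each, and DESeq2 gave 1. These shares were near or below those of all genes.

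**Figure D3:**
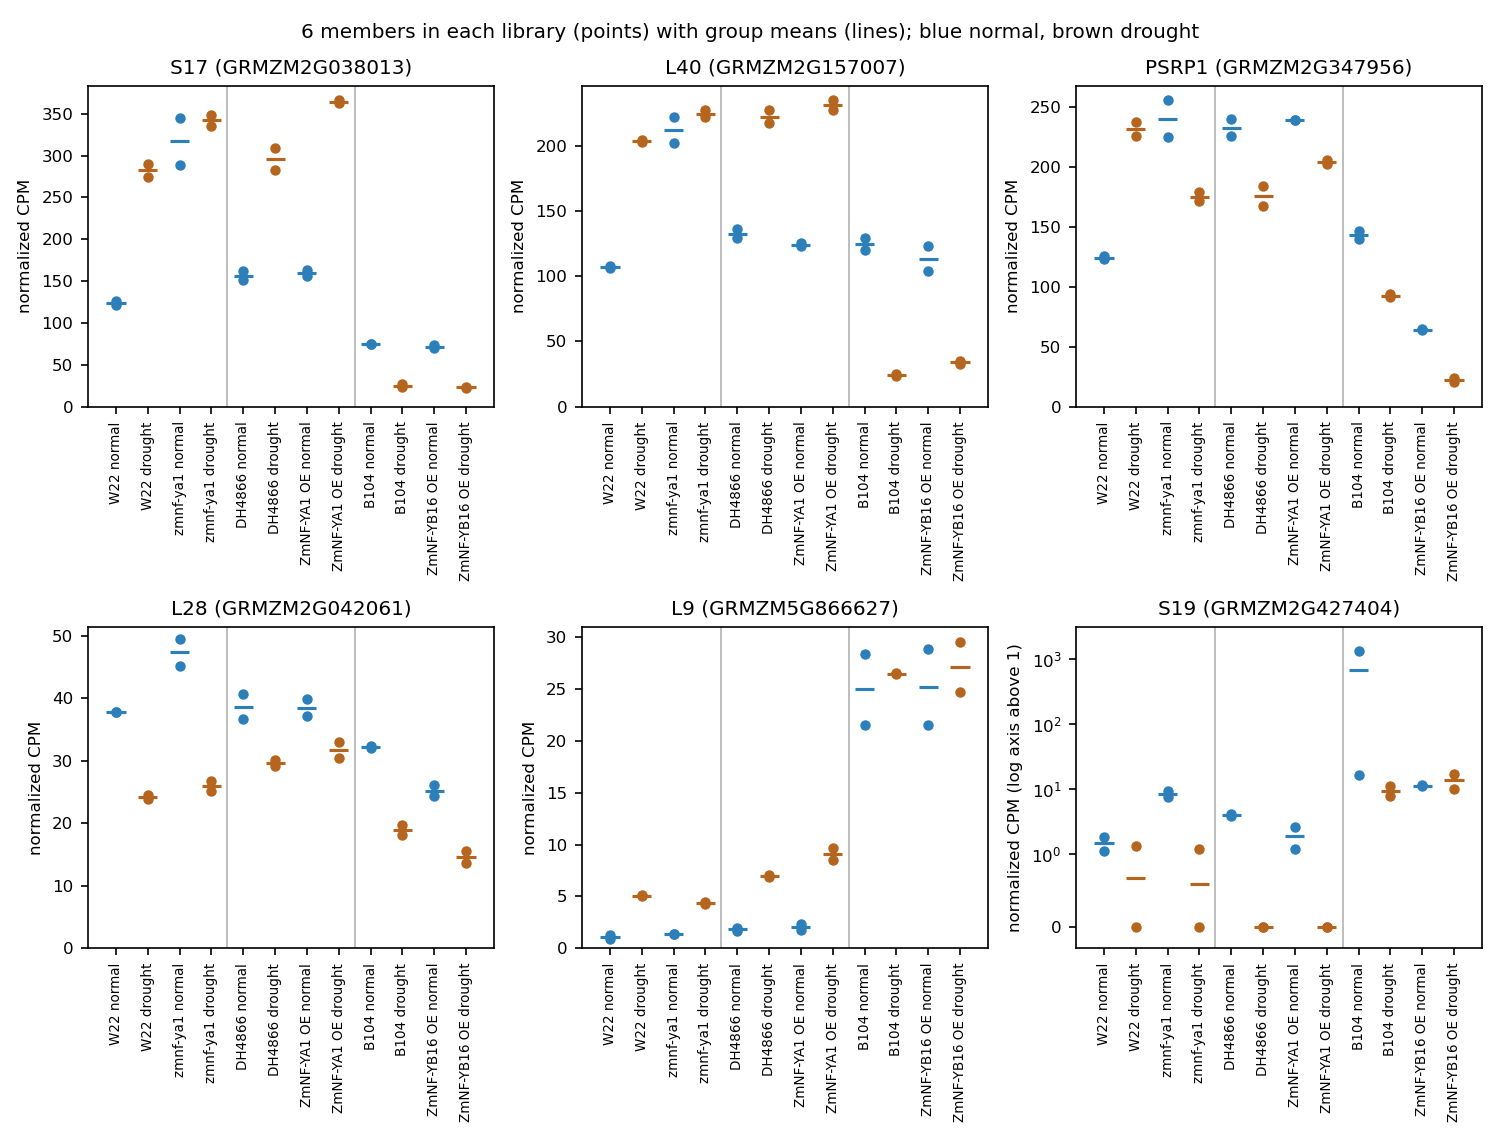
Normalized CPM of 6 members in each of the 24 libraries (points, with lines at group means, blue normal and brown drought; the S19 panel has a log axis above 1). S17 and L40 rise under drought in W22 and DH4866 and fall in B104, PSRP1 goes up only in W22, L28 is lower under drought in every genotype, L9 is raised in the W22 and DH4866 sets and S19 reaches 1320 CPM in 1 library of unstressed B104.

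In the B104 set drought lowered most members. In B104, 30 of 41 members were lower and 4 higher under drought, against 25.9% and 25.3% of all 21970 genes, and the medians were -0.770 for the members and 0.000 for all genes. Falls of more than 2-fold were seen for 18 members, against 13.0% of all genes. In *ZmNF-YB16* OE, 27 were lower and 0 higher, against 25.7% and 25.5%, with a median of -0.791, and 16 fell by over 2-fold, against 11.9%. No member was higher there at an unadjusted P below 0.05 in edgeR or called higher by DESeq2, whereas library size alone gave 3 higher and 21 lower and limma on FPKM 3 and 23. With library size alone B104 gave 24 lower and 5 higher, and all genes had a median of 0.290. Without the library that stood apart B104 had 27 lower and 3 higher. Both genotypes shared 24 of the members that fell.

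L40 (GRMZM2G157007) had 120 and 129 CPM in unstressed B104 and 25.2 and 23.2 under drought, a fall by 2.36 on the log2 scale (adjusted P = 4.26e-14). In *ZmNF-YB16* OE it fell by 1.73 on the log2 scale, to 35.3 and 33.1 CPM. PSRP3, a protein specific to plastid ribosomes, fell for both of its genes. GRMZM2G361569 had 252 and 267 CPM in B104 and then 65.8 and 64.1, and GRMZM2G032721 had 17.9 in both libraries and then 3.06 and 4.18. L31 (GRMZM2G130358) had 229 and 243 CPM and then 58.2 and 53.1 in B104, and 246 and 223 and then 53.2 and 47.6 in *ZmNF-YB16* OE. Its log2 fold changes were -2.08 ± 0.08 and -2.22 ± 0.08, and in neither genotype did the conditions approach each other. S17 had 74.4 and 74.8 CPM and then 27.0 and 23.5 in B104. PSRP2 (GRMZM2G090271), a plastid-specific protein related to RNA-binding proteins, had 88.5 and 90.7 CPM and then 20.5 and 23.0 in *ZmNF-YB16* OE.

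One library set the size of the fall in B104 for the S19 gene GRMZM2G427404 and decided the call for S2 (GRMZM2G013798). S19 had 16.1 and 1320 CPM in unstressed B104 and 10.9 and 7.84 under drought, and S2 had 3.13 and 50.6 and then 1.70 and 1.05. The high value of each gene lay in the library with 1968 CPM of organelle-encoded ribosomal protein transcripts. The members without S19 summed to 3990 and 3967 CPM in the 2 libraries, so that the other members were level between them. Without that library the log2 fold change went from -6.12 to -0.77 for S19, which was still called lower (adjusted P = 0.0200), and from -4.15 to -1.17 for S2, which was not (adjusted P = 0.180).

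The 4 members that rose in B104 were L1 (GRMZM2G122290), L12-2 (GRMZM2G171501), S1 (GRMZM5G862107) and L1 (GRMZM2G005973). The first had 3.13 and 1.99 CPM and then 7.48 and 8.54, a log2 fold change of 1.58 ± 0.34. S1, the protein that helps bacterial ribosomes to bind messages, had 330 and 296 CPM and then 393 and 385 in B104, and in *ZmNF-YB16* OE 267 and 273 and then 266 and 256, which did not pass the test. L1 (GRMZM2G005973) had 493 and 472 CPM and then 543 and 539 in B104, whereas in *ZmNF-YB16* OE it fell from 335 and 334 to 277 and 267. L12-2 (GRMZM2G171501) had 8.55 and 5.30 CPM and then 13.8 and 11.1 in B104, and was not called without the second unstressed library (adjusted P = 0.0877).

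The drought libraries of this set also had fewer transcripts for photosynthesis. Summed over the chlorophyll a-b binding genes the level went from 21500 and 21420 to 5091 and 5120 CPM in B104 and from 16940 and 16650 to 5233 and 4815 in *ZmNF-YB16* OE. Over 4 mesophyll genes it went from 41730 and 41450 to 5623 and 5587 CPM in B104. A list of 4 chlorophyll breakdown genes went the other way, from 139.5 and 133.1 to 1016 and 1017 CPM. The summed level of the members was 4006 and 5287 CPM in unstressed B104 and 2385 and 2372 under drought. In *ZmNF-YB16* OE the members went from 3611 and 3641 to 1944 and 1904 CPM. The part of the other lists in the members' fall was not tested.

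The *ZmNF-YB16* OE and B104 groups differed in single members rather than in one direction. Under normal conditions 5 were higher and 12 lower in the line, against 14.6% and 15.7% of all genes, with a median of -0.007. The lower count was 7 without the library that stood apart, 6 or 7 without either library of the line, and 6 with DESeq2, and library size alone gave 8 higher and 6 lower. The S19 gene GRMZM2G427404 and S2 were among the 12 and were not called without that library (adjusted P = 0.179 and 0.772). Under drought 8 were higher and 9 lower, against 16% and 15.9%. PSRP1 stood out in both. It had 147 and 140 CPM in B104 and 64.5 and 63.9 in the line under normal conditions, a log2 difference of -1.16 ± 0.08 (adjusted P = 6.37e-10). Under drought it had 91.3 and 93.9 against 24 and 20.4 CPM, a difference of -2.06 ± 0.09 (adjusted P = 6.06e-13).

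The second S17 gene (GRMZM2G108008) was also lower in the line, with 10.2 and 8.94 against 4.41 and 3.01 CPM under normal conditions and 6.12 and 6.62 against 2.82 and 2.59 under drought. L1 (GRMZM2G005973) had 493 and 472 against 335 and 334 CPM and then 543 and 539 against 277 and 267. Both genes were lower under either condition with no overlap between the genotypes. L35 (GRMZM2G052586) was higher in the line, with 6.67 and 6.62 against 26.2 and 30.5 CPM and then 3.74 and 4.70 against 16.7 and 15.5. L33 (GRMZM2G176133), whose KEGG entry also names an enzyme, had 37.1 and 37.7 against 61.5 CPM in both libraries of the line under normal conditions. PSRP3 (GRMZM2G032721) was higher too, at 0.50 under normal conditions and 1.10 under drought on the log2 scale, but under normal conditions not without the second unstressed B104 library (adjusted P = 0.072).

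The responses of *ZmNF-YB16* OE and B104 to drought differed for 8 members, 3 with a higher response in the line and 5 with a lower one, against 9.13% and 8.57% of all genes. L40 at 0.63, L6 (GRMZM2G086788) at 0.56 and S19 had the higher response. PSRP1 differed by -0.90 ± 0.13 (adjusted P = 2.72e-05), L12-2 (GRMZM2G171501) by -1.08, L1 (GRMZM2G005973) by -0.46, PSRP2 (GRMZM2G090271) by -0.38 and S1 by -0.36. The value of S19, 6.38, was 1.02 without the second library of unstressed B104. Without that library the counts were 2 higher and 4 lower. L6, L12-2 and PSRP2 were then no longer called (adjusted P = 0.0767, 0.0822 and 0.0962), and L21 (GRMZM2G054149), a large-subunit protein named here after its value was seen, was called lower (adjusted P = 0.0331).

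**Figure D4:**
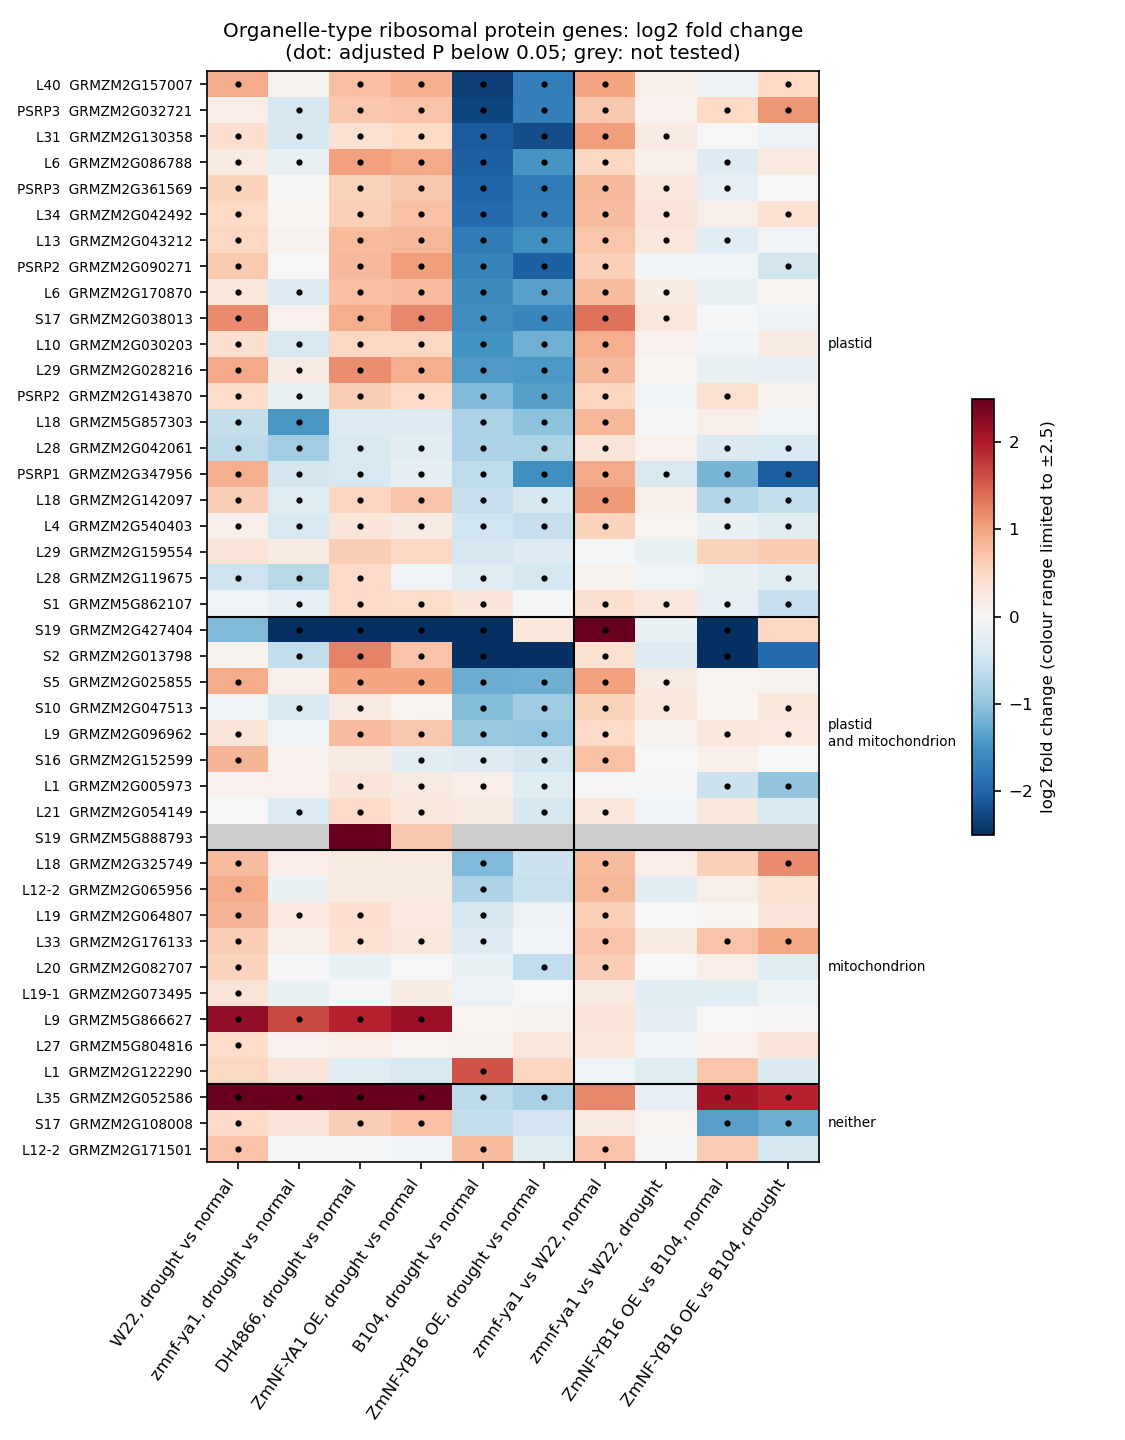
Log2 fold change of the 42 members tested in at least 1 set (rows, ordered by the organelle in their GO annotation and then by their change in B104) in 10 comparisons (columns). Dots mark an adjusted P below 0.05 and grey means not tested: the plastid members are mostly red in W22 and the DH4866 set and blue in the B104 set.

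Set side by side, the 41 members tested in every set often moved one way in W22 and DH4866 and the other way in B104. Under drought 21 of these members were higher in both W22 and DH4866, as were 19.9% of the 19792 genes tested in every set. Of the 21, 19 were lower in B104 and 17 were lower in both B104 and *ZmNF-YB16* OE, 0 were higher in B104 and 2 were not called there. Over all genes higher in both W22 and DH4866, 32.0% were lower in B104, 25.2% were lower in both B104 and *ZmNF-YB16* OE, and 27.1% were higher in B104. S17, for example, had log2 fold changes of 1.19 in W22, 0.92 in DH4866 and -1.56 in B104, and L29 (GRMZM2G028216) had 0.95, 1.16 and -1.41. No member was higher in W22, DH4866 and B104 alike. One member, L28 (GRMZM2G042061), was lower under drought in all 6 genotypes, as were 3.04% of all genes, by 0.65 in W22, 0.87 in *zmnf-ya1*, 0.38 in DH4866, 0.28 in the labelled line, 0.77 in B104 and 0.79 in *ZmNF-YB16* OE on the log2 scale. The sets were fitted separately and the difference between them was not tested.

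In the B104 set most members that the GO column places in the plastid, alone or together with the mitochondrion, fell. Of 21 tested in the plastid alone, 19 were lower in B104 and 19 in *ZmNF-YB16* OE, with medians of -1.49 and -1.44, against 25.9% and 25.7% of all genes lower. Of 8 placed in both, 6 were lower and 1 higher in B104 and 6 were lower in *ZmNF-YB16* OE, with medians of -1.01 and -0.68. They include S19 (GRMZM2G427404) and S2, whose size or call in B104 rested on 1 library. Of the 9 tested members placed in the mitochondrion alone, 4 were lower and 1 higher in B104 and 1 was lower in *ZmNF-YB16* OE, with medians of -0.17 and -0.08. The 1 of 9 lies below the share of all genes. Among the 9, L19 (GRMZM2G064807), L19-1 (GRMZM2G073495) and L9 (GRMZM5G866627) are described as chloroplastic-like. Description and GO column thus disagree for them, and the class is not a sure set of mitochondrial ribosomal proteins. In W22 the plastid members were higher in 15 of 21 cases with a median of 0.415, and the mitochondrial members in 8 of 9 with a median of 0.62, against 34.8% of all genes. In DH4866 these counts were 17 of 21 and 3 of 9, with medians of 0.60 and 0.22, against 31.6% of all genes, so that the mitochondrial count was near the background. The members that the GO column places in the mitochondrion alone were weakly expressed, none of them above 61.5 CPM in any library. The classes were not tested against each other.

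**Figure D5:**
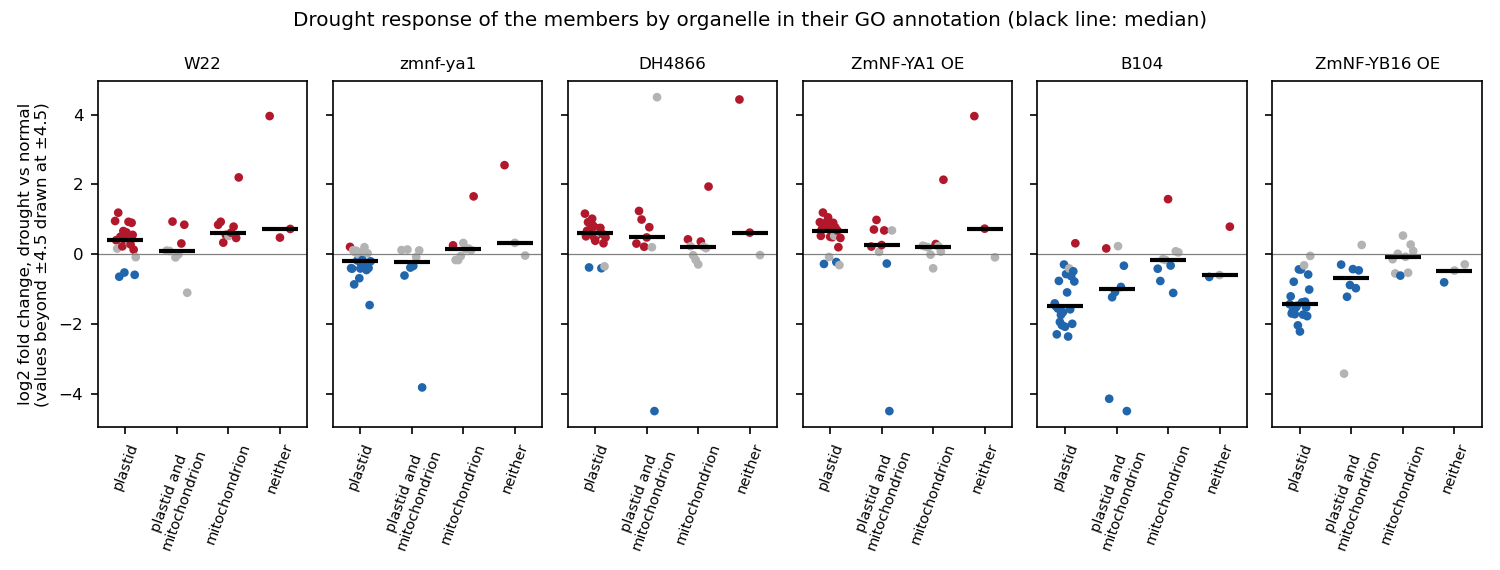
Log2 fold change under drought (y axis) of the members in 6 genotypes, split by the organelle in the GO annotation (x axis), red where higher, blue where lower and grey where not called, with black lines at the median. In B104 and *ZmNF-YB16* OE the plastid medians are -1.49 and -1.44 and the mitochondrial medians -0.17 and -0.08. Some members placed in the mitochondrion are described as chloroplastic-like.

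Other parts of the translation machinery did not all move with the members. Of all genes tested, 34.8% were higher and 33.8% lower under drought in W22, and 28.1% and 29.6% in *zmnf-ya1*. The shares were 25.3% and 25.9% in B104, 25.5% and 25.7% in *ZmNF-YB16* OE and 31.6% and 31.1% in DH4866. In unstressed *zmnf-ya1* against W22 they were 30.2% and 23.4%. Cytosolic ribosomal protein genes, which build the ribosomes outside the organelles, were higher under drought in W22 for 154 and lower for 10 of 175 tested, with a median of 0.98. In *zmnf-ya1* 106 were higher and 18 lower, and in unstressed *zmnf-ya1* against W22 150 were higher and 4 lower. In B104 9 were higher and 92 lower of 167, with a median of -0.27, and in DH4866 111 were higher and 17 lower of 176, with a median of 0.32. Of the 7 organelle translation factor genes, for steps such as elongation and release, 1 was higher and 4 lower in W22 and 0 were higher and 6 lower in DH4866, where most members were higher. In *zmnf-ya1* 2 were higher and 4 lower, and of 6 tested in the B104 set 1 was higher and 4 lower in B104 and 0 and 4 in *ZmNF-YB16* OE, the direction of most members called there. Of 7 organelle tRNA charging genes, 0 were higher and 2 lower in W22, both shares below those of all genes. In B104 0 were higher and 3 lower. Of 166 tested genes for pentatricopeptide repeat proteins, which bind organelle RNAs, 49 were higher and 44 lower in W22, both shares below the 34.8% and 33.8% of all genes. In the B104 set 10 were higher and 50 lower of 150 in B104, and 6 and 55 in *ZmNF-YB16* OE. Genes described as organelle-encoded ribosomal proteins were higher in W22 for 1 and lower for 5 of 20 tested, both shares below those of all genes. In DH4866 they were higher for 13 and lower for 1 of 20, and in the labelled line for 4 and 0 of 20. The 2 drought libraries of DH4866 differed, with 245.1 and 396 CPM summed over these genes.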

How the data were processed

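RNA-seq of 24 maize leaf libraries was used. The authors deposited, per library and gene, expected counts estimated with RSEM from reads aligned with Bowtie2 to the B73 V3 gene set, and FPKM, scaled by transcript length and mapped fragments. For the DH4866 set the processing is not given in the sources used here. A gene not listed in a library was set to 0. Members were the 44 genes fitting the description rule. The members and lists were chosen with earlier results of these data known.

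Expected counts were rounded and each set was fitted in R 4.3.3 with edgeR 4.0.16 (filter by group, TMM, quasi-likelihood test, 4 groups), with 24159 genes tested for W22, 21970 for B104 and 24604 for DH4866. P values were adjusted by Benjamini-Hochberg over all genes tested, errors are SEs of log2 fold changes, and normalized CPM use TMM sizes. The interaction is the line's response minus the wild type's. In each comparison up to 5 members with the largest rise and up to 5 with the largest fall were eligible to be named. These had to be called and without overlap between groups. Also eligible were the 5 members of highest FPKM per set and the S17 genes, which are described as chloroplastic. Other members were named after their values were seen.

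Alternatives were DESeq2 1.42.0, scaling by RLE or by library size alone, the unfiltered table, limma 3.58.1 on log2(FPKM + 1), a replicate block, summed paralogs and each library left out. Counts carry no molecular identifiers, so floors cover counting error only. In simulations of the line against its wild type under normal conditions, 200 genes were shifted by 2 on the log2 scale, of which 200 were recovered for W22, 200 for B104 and 199 for DH4866 (23218, 21205 and 23824 genes tested). The shifted genes were drawn from those above a limit on counts, and most member changes were smaller than this shift. The recovery therefore does not measure power for weak members or small changes. Promoter motifs were not analysed here.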

Additional observations from a re-analysis of the deposited data

Results flagged for a closer look

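The response to drought differed between genotypes for some members. In the W22 set 27 of 41 members had a lower response in *zmnf-ya1*, against 22.5% of all genes. Among them were PSRP1 (GRMZM2G347956) at -1.35, L12-2 (GRMZM2G065956) at -1.10, S17 (GRMZM2G038013) at -1.08, L18 (GRMZM2G142097) at -0.92 and L18 (GRMZM5G857303) at -0.87 on the log2 scale. The response was also lower for 133 and higher for 2 of 175 cytosolic ribosomal protein genes. It was lower for 12 and higher for 0 of 13 chlorophyll a-b binding genes.

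In the B104 set 3 members had a higher and 5 a lower response in *ZmNF-YB16* OE. These were 7.32% and 12.2% of the members tested, near the 9.13% and 8.57% of all genes. The higher ones were S19 (GRMZM2G427404) at 6.38, L40 (GRMZM2G157007) at 0.63 and L6 (GRMZM2G086788) at 0.56. The lower ones were L12-2 (GRMZM2G171501) at -1.08, PSRP1 at -0.90, L1 (GRMZM2G005973) at -0.46, PSRP2 (GRMZM2G090271) at -0.38 and S1 (GRMZM5G862107) at -0.36. Without the second library of unstressed B104 the S19 value was 1.02, and L6, L12-2 and PSRP2 were not called (adjusted P = 0.0767, 0.0822 and 0.0962).

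In the DH4866 set 1 member had a higher and 3 a lower response in the labelled line, shares below the 8.67% and 9.40% of all genes. They were S17 at 0.27, L28 (GRMZM2G119675) at -0.56, S16 (GRMZM2G152599) at -0.47 and L29 (GRMZM2G028216) at -0.24. Of these, L28 alone was called in every fit with a library left out.

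Across sets, 19 of the 21 members higher under drought in W22 and DH4866 were lower in B104, against 32.0% of all genes higher in both. The difference between sets was not tested.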

How the results depend on the processing

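Of 354 counts of called members under alternatives, 276 stayed within 1.5 times the value reported. Of 30 counts, limma on FPKM moved 13 further than that, library size alone 12, DESeq2 7, no filter 4, the replicate block 2 and RLE scaling 0. With library size alone, drought in W22 gave 5 members lower, drought in *zmnf-ya1* 16 higher and 11 lower (median reversed to 0.168), unstressed *zmnf-ya1* against W22 20 higher and 2 lower, and the W22-set interaction 1 higher and 13 lower. In the other sets it gave 3 higher for drought in *ZmNF-YB16* OE, 8 higher and 6 lower for that line against B104 under normal conditions, 2 higher for the labelled *ZmNF-YA1* OE line against DH4866 under normal conditions and 0 higher for the DH4866-set interaction. limma on log2(FPKM + 1), which lacks TMM scaling, gave in the same order 5 lower, 17 higher and 10 lower (median 0.158), 21 and 3, 1 and 14, 3 higher, 8 and 4, 2 higher and 0 higher, and 2 lower for the labelled line under drought.

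DESeq2 gave 6 lower for *ZmNF-YB16* OE against B104 under normal conditions, 4 higher under drought and 3 lower for that set's interaction. For the labelled line it gave 0 higher and 1 lower under normal conditions, 3 lower under drought and 1 lower for the interaction. Without a filter on low counts these were 0 higher and 1 lower, 3 lower, and 0 higher for the interaction. The cause was not tested.

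A replicate block moved 2 counts by over 1.5 times, to 2 lower for *zmnf-ya1* against W22 under drought and to 2 higher for the DH4866-set interaction. Replicate numbers are shared by label only. The correlation of same-numbered libraries' deviations lay between 0.03 and 0.097 for W22, between -0.02 and 0.028 for B104 and between 0.06 and 0.195 for DH4866.

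After the data had been seen, 8 members of doubtful annotation were left out. This gave 2 higher for *ZmNF-YB16* OE against B104 under normal conditions, 5 higher under drought and 0 lower for the labelled line under normal conditions.

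Leaving out each library in turn gave the following ranges. In the W22 set they were 24 to 27 higher and 2 to 4 lower for drought in W22, 2 to 7 and 14 to 16 in *zmnf-ya1*, 28 to 33 and 0 for *zmnf-ya1* against W22 under normal conditions, 4 to 6 and 1 under drought, and 0 and 22 to 28 for the interaction. The 7 came without the first unstressed library of *zmnf-ya1* and the 2 without its second drought library. In the B104 set they were 3 to 4 and 23 to 27 for drought in B104, 0 and 25 to 28 in *ZmNF-YB16* OE, 4 to 5 and 6 to 9 for the line against B104 under normal conditions, 6 to 7 and 7 to 8 under drought, and 1 to 3 and 3 to 4 for the interaction. In the DH4866 set they were 27 to 28 and 3 for drought in DH4866, 23 to 26 and 2 to 4 in the labelled line, 0 to 1 and 1 to 2 for the line against DH4866 under normal conditions, 1 to 2 and 1 to 3 under drought, and 0 to 2 and 1 to 2 for the interaction.

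Of 1128 values of single named members under alternatives, 0 changed direction and 137 no longer passed the test. These values belong to members selected in the same libraries for being called, without overlap between groups and among the largest changes. That selection favours an unchanged direction, so the 0 is not a measure of robustness and says nothing about members outside it. With 2 libraries per group the spread of a single gene is poorly known, and the shallower B104 set measures weak members least well.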
